A study of Caenorhabditis elegans with 2 samples.

Results

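The heterochronic genes set the order in which cells of the Caenorhabditis elegans larva take up the fates of each larval stage. The 8 genes described here are lin-14, lin-28, lin-46, hbl-1, lin-41, lin-29, lin-42 and puf-9, taken by name from the 19973 nuclear protein-coding genes of the Ensembl annotation. They were examined in a chromatin immunoprecipitation sequencing (ChIP-seq) experiment on TBX-2, a T-box factor known for its part in the making of pharyngeal muscle. Both samples, biological replicates 1 and 2, were whole L1 (first larval stage) hermaphrodites. They had been synchronized as starved L1 larvae after bleaching and were taken 6 h later. The strain, OP159, has the genotype unc-119(ed3) III; wgIs159, and its integrated wgIs159 transgene supplies TBX-2 tagged with GFP and FLAG at the C-terminus. Precipitation was with an antibody against GFP, so the values report the tagged protein, from whichever cells of the whole animal make it, over a background that carries the unc-119 mutation. With 1 group there was no second condition to compare, and no test was made.

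In this pathway, early regulators keep cells in the programmes of the first and second larval stages until microRNAs lower them. LIN-14 is a nuclear regulator of first-stage fates and a target of the lin-4 microRNA. LIN-28 is an RNA-binding protein that holds back maturation of the let-7 microRNA, LIN-46 is a gephyrin-like protein that acts downstream of it, and HBL-1 is a zinc finger factor related to Hunchback. LIN-41, a TRIM-NHL protein and let-7 target, restrains the zinc finger factor LIN-29, which drives the switch from larva to adult. LIN-42 is related to the circadian protein Period, and PUF-9 is a Pumilio-family RNA-binding protein that acts on hbl-1.

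The data are peak lists. The ce11 list thresholded by irreproducible discovery rate (IDR), a measure of how alike regions rank in replicates, held 4384 peaks, and the pooled list and each replicate's list held 30000 regions each. The pooled list was deposited as peaks and background together, the input for IDR, so its regions include background. Each region has a summit and a signal, its strength by the authors' caller in units that are not stated. Rank 1 is the strongest region of a list. All 4384 IDR peaks were the strongest 4384 regions of the pooled list, and all had the same −log10 q-value of 4.01, so the signal alone orders them. No read counts were used, so the sequencing depth is unknown. The median signal over the IDR list was 145. The window of a gene was its annotated span plus 5000 bp to either side of each of its transcript starts. A promoter was 1000 bp upstream to 200 bp downstream of a start. Coordinates are on ce11.

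IDR summits lay in the windows of 7 of the 8 genes, against 36.1% of all protein-coding genes. Windows of the 8 genes had a median length of 11.8 kb, against 10.0 kb over all genes, and among the 2711 genes with windows of at least that median, 51.7% held an IDR summit. The windows held 16 IDR summits, or 1.22 per 10 kb, against 0.470 per 10 kb over the windows of all genes. The summits were spread unevenly, with 6 at lin-14, 3 each at lin-28 and lin-46, and 1 each at lin-41, lin-42, hbl-1 and puf-9. At lin-29 there was none. A window with 3 or more IDR summits was found for 3 of these 8 genes, against 3.02% of all genes. This share was not matched for window length, and only lin-14 had that many summits nearest to its own start. All 3 of the genes on the X chromosome, lin-14, hbl-1 and puf-9, had an IDR summit, as did 37.8% of the protein-coding genes of X.

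The windows also reach into other genes. For 11 of the 16 summits the nearest protein-coding transcript start was that of the heterochronic gene itself, and 6 of the 8 genes had such a summit, against 16.8% of all genes. The other 5 summits, all 3 at lin-46 and 1 each at lin-14 and lin-28, lay nearer to the start of a neighbour. A promoter summit was present at 4 of the 8 genes, namely lin-14, lin-28, lin-46 and puf-9, against 15.6% of all genes.

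**Figure D1:**
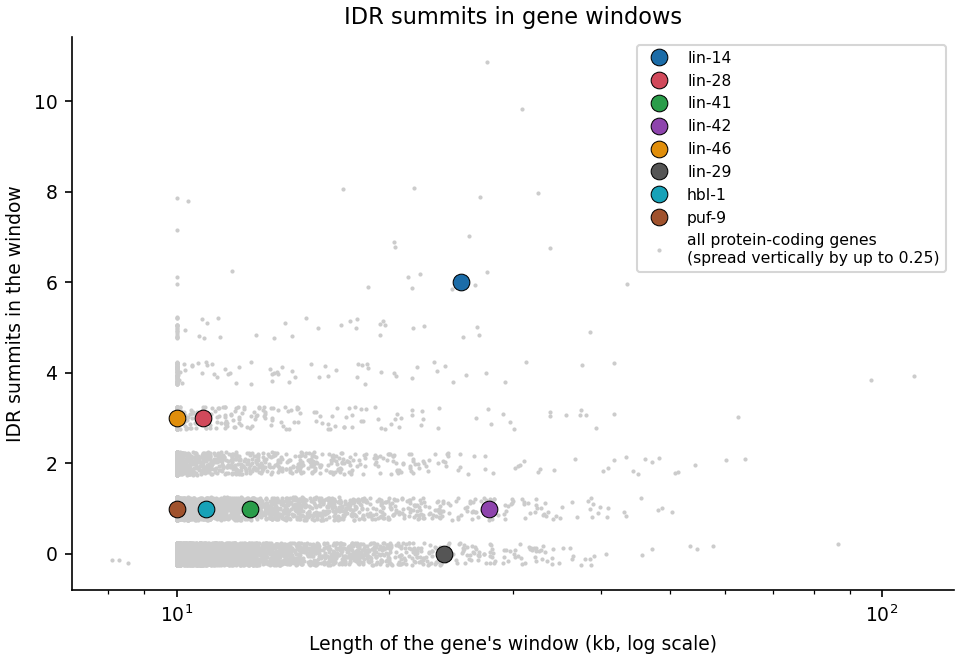
Number of IDR summits in a gene's window (vertical axis) against the length of the window in kb (horizontal axis, log scale), with each heterochronic gene as a coloured point and all protein-coding genes in grey. lin-14 stands at 6 summits, lin-28 and lin-46 at 3, and lin-29 at 0 although its window is 23.9 kb long.

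Sequence at the strongest IDR summit is shown for puf-9, lin-42 and hbl-1, to let the very strong puf-9 summit be read beside a summit in an intron of lin-42 and one far upstream of hbl-1. Each is 300 bases of the RefSeq WBcel235 genome, which has the coordinates of ce11, on the strand of the gene and centred on the summit. The stretches are chrX:5841157-5841456 (plus strand) for puf-9, chrII:1246903-1247202 (minus) for lin-42 and chrX:5820008-5820307 (plus) for hbl-1. Capitals mark GGTGT or its reverse complement, the core of the T-box site GGTGTGA.
puf-9: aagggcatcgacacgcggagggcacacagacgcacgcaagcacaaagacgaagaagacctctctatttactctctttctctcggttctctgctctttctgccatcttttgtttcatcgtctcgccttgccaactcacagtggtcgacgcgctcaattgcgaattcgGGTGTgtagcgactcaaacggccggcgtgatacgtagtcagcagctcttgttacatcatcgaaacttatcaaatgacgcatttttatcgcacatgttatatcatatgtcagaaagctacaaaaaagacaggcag
lin-42: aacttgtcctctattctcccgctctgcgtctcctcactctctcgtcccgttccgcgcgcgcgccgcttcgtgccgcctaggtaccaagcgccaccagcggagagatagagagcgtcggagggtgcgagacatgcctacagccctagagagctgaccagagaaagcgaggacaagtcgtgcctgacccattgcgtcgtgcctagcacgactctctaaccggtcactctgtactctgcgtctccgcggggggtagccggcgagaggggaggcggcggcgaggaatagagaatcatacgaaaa
hbl-1: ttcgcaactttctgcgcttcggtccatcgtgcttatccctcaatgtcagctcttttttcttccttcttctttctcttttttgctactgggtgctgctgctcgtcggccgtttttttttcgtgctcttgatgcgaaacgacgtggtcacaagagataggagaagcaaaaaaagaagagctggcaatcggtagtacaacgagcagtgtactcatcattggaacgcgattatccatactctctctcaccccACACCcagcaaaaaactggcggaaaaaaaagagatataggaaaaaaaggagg
The puf-9 and hbl-1 stretches held 1 core each, that of lin-42 held 0, and no stretch held the longer site. GC content was 47.7% at puf-9, 61.7% at lin-42 and 45.3% at hbl-1. Annotated ncRNA genes, which do not code for protein, overlap all 3 stretches. No UTR of a protein-coding gene does, which was a condition of their choice.

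Among the regulators of the early stages, lin-14 (WBGene00003003, chromosome X, 11465560 to 11485871, plus strand) had the most IDR summits, 6 in a window of 25.3 kb. As many or more were found in 0.130% of all protein-coding genes, most of which have shorter windows. Per length its 2.37 IDR summits per 10 kb were more than in 97.6% of all genes. Over all summits in the window, lin-46 with 2.9997 (98.3%) and lin-28 with 2.76 (97.9%) were denser. Counted for the nearest start only, lin-14 had 5 summits, lin-28 had 2 and lin-46 had 0. The strongest lin-14 summit had a signal of 294, with 88.9 in replicate 1 and 207 in replicate 2. It lay in an intron 7872 bp downstream of the first start and 6929 bp upstream of the second. A further intronic summit stood 1982 bp downstream of the first start, with a signal of 255 pooled, 112 in replicate 1 and 144 in replicate 2. The lin-14 promoter held 1 summit, 210 bp upstream of the first start, with 250 pooled, 92.9 in replicate 1 and 153 in replicate 2. These 3 summits differed little in signal, at ranks 820, 1019 and 1053 of the IDR list, so the promoter did not stand above the introns.

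The other 3 summits of lin-14 were weaker. The one 6565 bp downstream of the first start, in an intron, had a signal of 139 pooled, 51.1 in replicate 1 and 90.9 in replicate 2. The one 2470 bp downstream of the second start, also intronic, had 171 pooled, 58.6 in replicate 1 and 114 in replicate 2. The last, in the annotated 3′ UTR, had 83.3 pooled, 41.6 in replicate 1 and 38.5 in replicate 2. It ranked 4035 of 4384, lay 126 bp from the snoRNA gene T25C12.11 and was nearest to the start of spp-9, 3417 bp away. It was the single summit of the 15 matched in both replicates with a lower signal in replicate 2 than in replicate 1. The lin-14 window held 32 pooled regions, of which 26 were below the IDR threshold, and the density of 12.6 per 10 kb was above that of 99.7% of all genes.

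**Figure D2:**
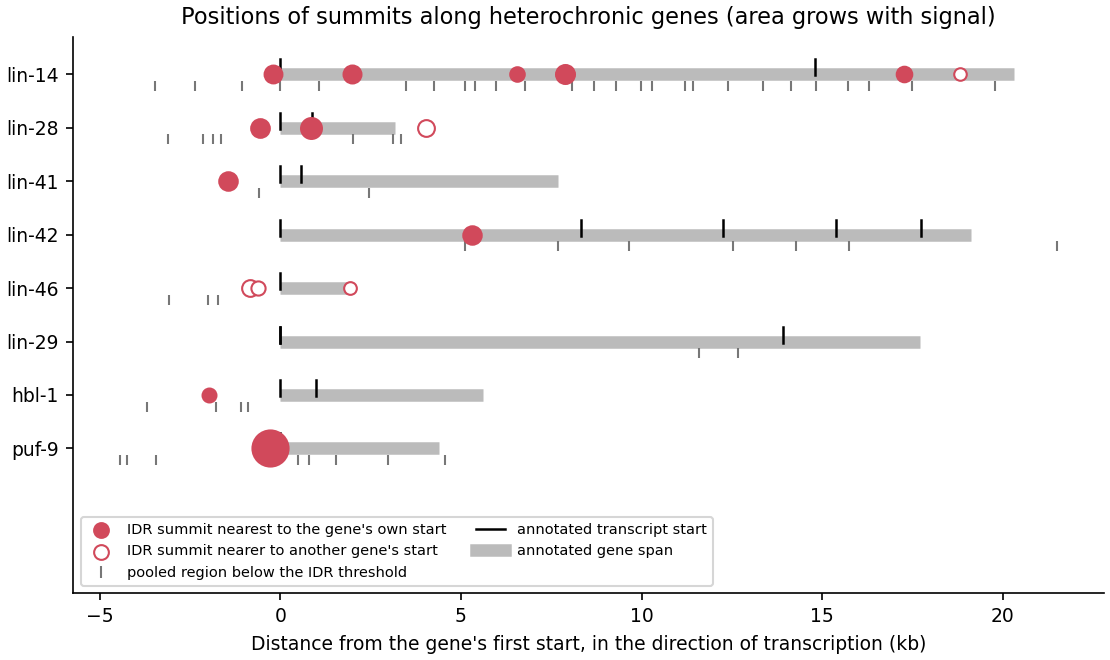
Positions of IDR summits (circles, area growing with signal) and of weaker pooled regions (grey ticks) along each gene, with distance in kb from the gene's first start in the direction of transcription, the gene span as a grey bar and transcript starts as black lines. Summits of lin-14 run along the gene, the lin-42 summit is intronic, and the open circles at lin-46, lin-28 and lin-14 are nearer to a start of another gene.

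At lin-28 (WBGene00003014, chromosome I, 8407630 to 8410804, minus strand) 2 of the 3 IDR summits lay in its own promoters. The stronger one was 24 bp upstream of the second of its 2 starts, in an intron of the longer form, with a signal of 375 pooled, 128 in replicate 1 and 254 in replicate 2. The other was 572 bp upstream of the first start, with 282 pooled, 95.5 in replicate 1 and 183 in replicate 2. Both annotated starts thus had a summit, with ranks within the strongest 870 of the IDR list. The third, 213 pooled with 90.1 in replicate 1 and 121 in replicate 2, lay beyond the end of lin-28, 65 bp from the start of F02E9.1, in the promoters of F02E9.1 and F02E9.3, and counts for lin-28 by distance alone.

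lin-46 (WBGene00003031, chromosome V, 12968855 to 12970730, plus strand) had 3 IDR summits in its window, and none was nearest to its own start. The strongest had a signal of 211 pooled, 82.5 in replicate 1 and 128 in replicate 2. It lay 846 bp upstream of lin-46 and 27 bp from the start of R186.8, a gene on the opposite strand that RefSeq annotates as a mitochondrial ribosomal protein, and also in the promoter of R186.3. A second, at 129 pooled, 41.5 in replicate 1 and 86.9 in replicate 2, lay between these genes, 607 bp from the lin-46 start and 266 bp from that of R186.8. Its region (12968048 to 12968447) overlaps that of the strongest summit (12967905 to 12968130), so the lin-46 count takes in overlapping regions. The third had 87.0 pooled, 36.2 in replicate 1 and 48.9 in replicate 2, and lay 317 bp from the start of pnn-1, the gene downstream of lin-46. Peak lists do not say which of the genes on either side a summit belongs to, and the lin-46 promoter count rests on the stretch shared with R186.8.

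hbl-1 (WBGene00001824, chromosome X, 5822142 to 5827755, plus strand) had 1 IDR summit, 1984 bp upstream of its first start, outside the promoter. Its signal was 121 pooled, rank 2735, and 50.8 in replicate 1, rank 2494. In replicate 2 no summit lay within 100 bp, and the nearest region had its summit 140 bp away, with a signal of 72.8 and rank 2846. Further pooled regions stood 1782 bp upstream (signal 66.9, rank 5021) and 1094 bp upstream (55.9, rank 5982), both below the IDR threshold. The hbl-1 and puf-9 genes lie close together on X, 13837 bp apart with 3 protein-coding genes between them. No IDR summit lay in that stretch other than the one at the puf-9 promoter.

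Of the later regulators, lin-41 (WBGene00003026, chromosome I, 9334800 to 9342496, minus strand) had 1 IDR summit and lin-29 had 0. The lin-41 summit lay 1454 bp upstream of the first start, beyond the promoter limit, with a signal of 277 pooled. It had 80.9 in replicate 1, rank 1340, and 193 in replicate 2, rank 738, a ratio of 2.39 and the highest among these summits. Pooled regions in the lin-41 window numbered 3, the others at ranks 11842 and 15711. At lin-29 (WBGene00003015, chromosome II, 11917642 to 11935343, minus strand) 2 pooled regions lay in 23.9 kb, and the stronger had a signal of 23.04 and rank 14351. The strongest region of lin-29 in replicate 1 had a signal of 10.6 and rank 17580, and that in replicate 2 had 12.6 and rank 17410. The −log10 q-values of these strongest lin-29 regions were 0.667 pooled, 0.339 in replicate 1 and 0.528 in replicate 2. Every IDR peak had 4.01, to be set against the pooled value only. The strongest region of each other gene had 3.75 in the replicate 1 list and 4.09 in the replicate 2 list. Both replicates thus listed only weak regions at lin-29, and whether TBX-2 binds there at all cannot be read from these lists.

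lin-42 (WBGene00018572, chromosome II, 1233236 to 1252359, minus strand) had 1 IDR summit in the longest of the windows, 27.7 kb. It lay in an intron, 5306 bp downstream of the first start and 3018 bp upstream of the nearest of its 5 starts. The signal was 274 pooled, 116 in replicate 1 and 157 in replicate 2, close in rank to the strongest summits of lin-14 and lin-41. The next region of lin-42, 1121 bp upstream of another start, had a signal of 74.1 and rank 4582, and was the strongest region in any of the 8 windows to fall outside the IDR list, just as the last lin-14 summit was the weakest inside it.

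puf-9 (WBGene00004245, chromosome X, 5841592 to 5845987, plus strand) carried a summit far stronger than the rest. It lay 285 bp upstream of the single annotated start and in no other promoter, with a signal of 1281 and rank 14 of the 4384 IDR peaks. Its signal was 447 in replicate 1, rank 19, and 842 in replicate 2, rank 12. The second strongest summit of the 8 genes, at lin-28, had 375. IDR peaks next to puf-9 in signal were one 1876 bp from the start of pqn-41 above it (1315, ranks 13 and 13) and one 1304 bp from ins-13 below it (1234, ranks 20 and 15). At the other end of the scale, the strongest summit of hbl-1 stood between peaks near fkh-7 and his-31, with signals of 120.9 and 120.8. Other pooled regions of puf-9 numbered 8 and ranked from 6522 downwards.

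**Figure D3:**
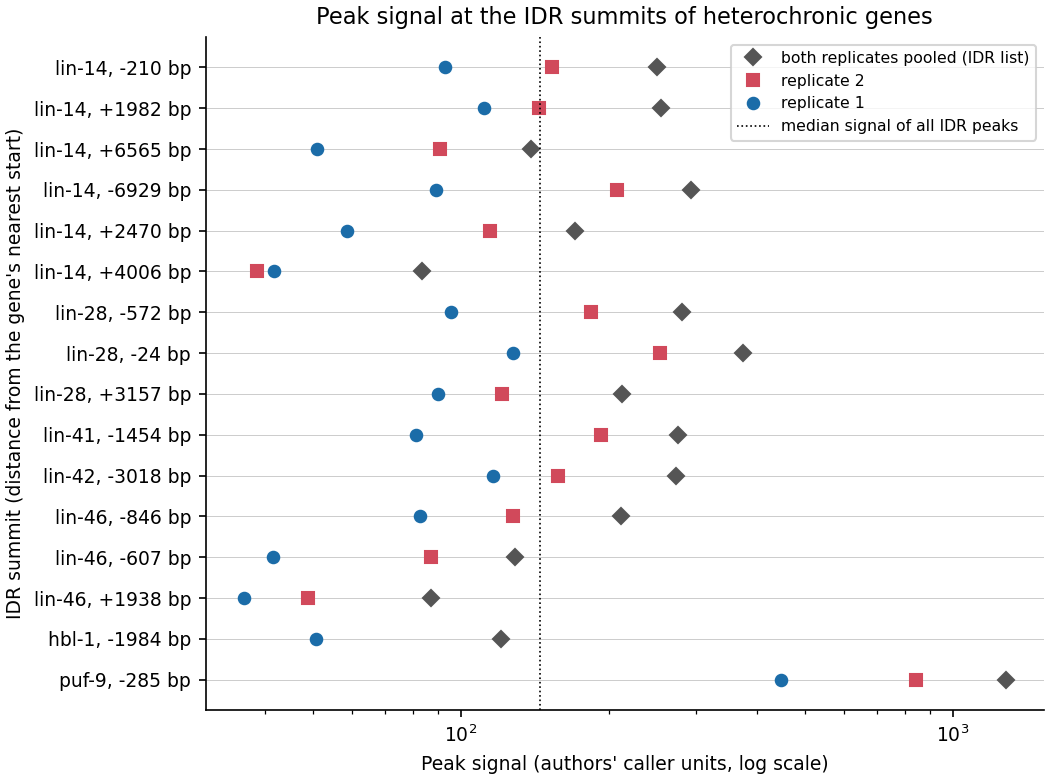
Signal in units of the authors' caller (horizontal axis, log scale) at each of the 16 IDR summits, labelled by gene and by distance in bp from that gene's nearest start, for replicate 1, replicate 2 and both pooled. puf-9 reaches 1281 while the other summits lie between 83.3 and 375, and hbl-1 has no replicate 2 point because no summit of that list lay within 100 bp.

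Over the 16 summits, the median signal was 231, against 145 for all IDR peaks, and 11 of 16 were above that median. The order of the genes by their strongest summit was puf-9 (1281), lin-28 (375), lin-14 (294), lin-41 (277), lin-42 (274), lin-46 (211) and hbl-1 (121). The replicates did not give the middle of this order alike. In replicate 1 lin-28 (128), lin-42 (116) and lin-14 (112) came next after puf-9, whereas in replicate 2 the order was lin-28 (254), lin-14 (207) and lin-41 (193), taking each gene's strongest region in that replicate.

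The replicates placed most of these summits alike. In replicate 1 all 16 had a summit within 100 bp among its 4384 strongest regions, where 87.3% of all IDR peaks did. In replicate 2 this held for 13 of 16, against 91.8% of all IDR peaks, and for both replicates together for 13 of 16, against 80.2%. None of these shares is independent, since both replicates went into the IDR list. The exceptions were the last summits of lin-14 (rank 5590 in replicate 2) and lin-46 (rank 4406) and the hbl-1 summit. For the 15 summits matched in both, the ratio of replicate 2 to replicate 1 signal had a median of 1.78 and ran from 0.924 to 2.39. Over the 4260 IDR peaks matched in both, the median was 1.61, and the range from the 10th to the 90th percentile was 1.16 to 2.32.

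**Figure D4:**
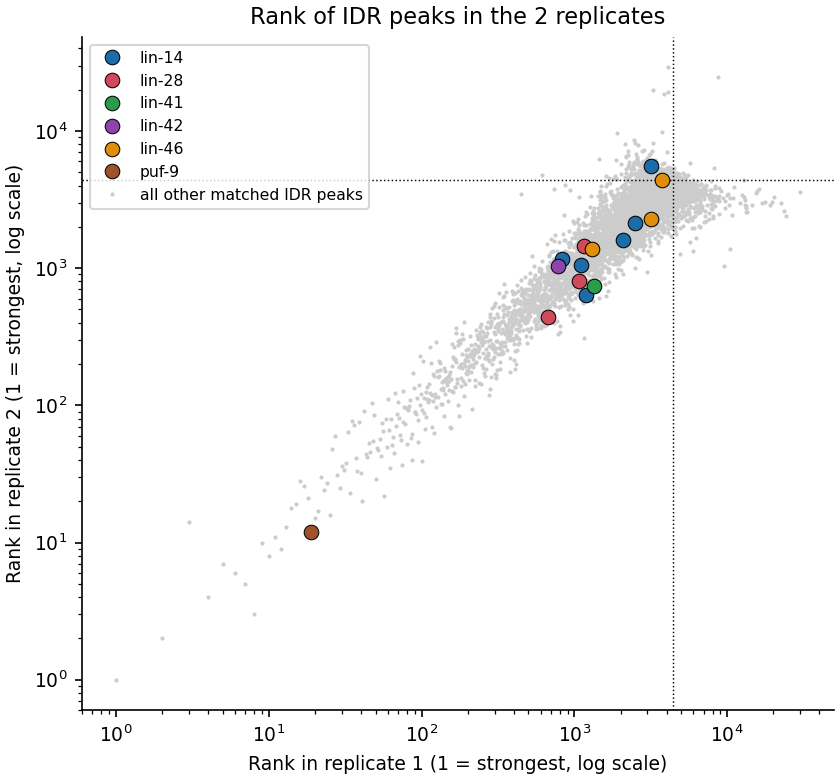
Rank in replicate 2 (vertical axis) against rank in replicate 1 (horizontal axis), both on log scales with 1 the strongest, for the 15 heterochronic summits matched in both replicates (coloured) and all other matched IDR peaks (grey), with dotted lines at rank 4384. puf-9 stands at ranks 19 and 12, and lin-14 and lin-46 each have 1 summit above the line in replicate 2.

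Below the IDR threshold the windows held 59 further pooled regions, 75 in all, and the lists of replicate 1 and replicate 2 held 68 and 75 regions there. Because the pooled list includes background, the regions below the threshold need not be binding sites. Density of pooled regions was high at lin-14, lin-28 (9.19 per 10 kb) and puf-9 (8.999), above 97.4% and 96.3% of all genes for lin-28 and puf-9. It was 5.9994 per 10 kb at lin-46 and 4.55 at hbl-1, above 84.9% and 75.9% of all genes. It was 2.36 per 10 kb at lin-41, 2.88 at lin-42 and 0.837 at lin-29, where the median over all genes was 2.00. The densest windows, those of lin-14, lin-28 and puf-9, were also those with the strongest summits, and lin-29 had the lowest density and no IDR summit. Among the other genes density did not follow the strength of the strongest summit. There lin-41 had a summit of 277 and 3 pooled regions in all, and hbl-1, with 121, had 5 in a shorter window.

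**Figure D5:**
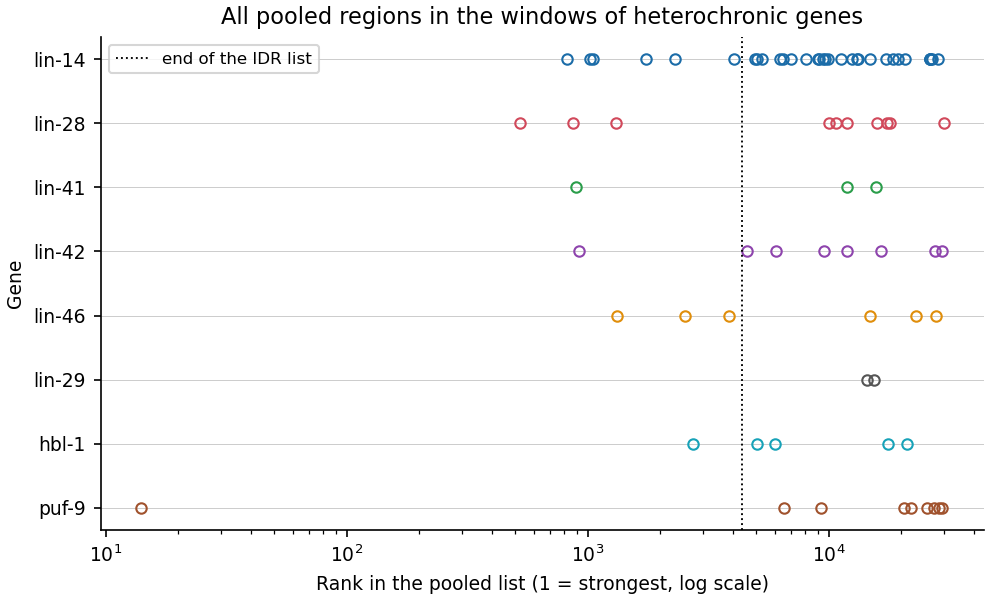
Rank in the pooled list (horizontal axis, log scale, 1 the strongest) of every pooled region in the window of each gene, with a dotted line at the end of the IDR list. lin-14 has 32 regions, lin-29 has 2 and both are far to the right of the line, and puf-9 has 1 region at rank 14 and the rest from 6522.

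The summits were also described by their position and sequence. Of the 16, 8 lay in a promoter of some protein-coding gene, near the share of 56.8% for all IDR summits. By annotation 9 were intergenic, 6 intronic, 1 in a 3′ UTR and 0 in a coding exon. To the nearest protein-coding start the median distance was 1013 bp, against 544 bp over all IDR summits. Annotated ncRNA genes contained 3 of the 16, namely those of lin-42 (F47F6.15), hbl-1 (F13D11.20) and puf-9 (W06B11.7 and W06B11.9), against 8.12% of all IDR summits. The peaks had a median width of 301.5 bp, against 400 bp in the whole list, and the bases within 50 bp of the summits had a median GC content of 50%, against 46.5%.

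The T-box site GGTGTGA, looked for on either strand and no more than 50 bp from the summit, was at 0 of the 16 summits and at 0.958% of all IDR summits, and 16 summits are too few to set against a share that low. AGGTGTGA, which contains it, was therefore also at 0 of the 16 summits. The shorter GGTGT, contained in both, was at 3 summits, those of puf-9 and the first and last of lin-46, and at 17.9% of all IDR summits, which is near the share in these genes. In windows of 300 bases, as printed for puf-9, lin-42 and hbl-1, 34.1% of all IDR summits held GGTGT and 2.37% held GGTGTGA. A match is only a description of the letters there.

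The wider pathway was described with 27 further protein-coding genes, of which 18 had an IDR summit in the window and 10 had one in a promoter, against the 36.1% and 15.6% of all genes given above. These shares were not matched for window length, and among the 2711 genes with longer windows described above 51.7% held an IDR summit. Of the 27, those with 3 summits were kin-20, which encodes a casein kinase related to Doubletime, and sea-2. The strongest promoter summit belonged to nhl-2, a TRIM-NHL cofactor of microRNA silencing, with 1414 pooled, 509 in replicate 1 and 904 in replicate 2, although its nearest start was that of tag-340. It was followed by ain-1, a GW182-family component of the silencing complex, with 724 pooled, 263 in replicate 1 and 446 in replicate 2. Next came lin-66 with 407 pooled, 155 in replicate 1 and 248 in replicate 2, and myrf-1, a membrane-bound factor that promotes lin-4 expression, with 342 pooled, 127 in replicate 1 and 209 in replicate 2. The 9 genes with none in the window included dcr-1, which encodes Dicer, and blmp-1, nhr-23, dre-1 and mab-10. Of the 5 microRNA genes of the pathway, 2 had an IDR summit in the window, against 48.7% of all 261 annotated microRNA genes. None had one in a promoter, for which the share over all microRNA genes was not counted. let-7 had a summit 1846 bp upstream of its annotated start (signal 318, rank 708) and mir-84 one 2294 bp upstream (133, rank 2446), but the nearest protein-coding starts were those of C05G5.2 and mboa-1. None was found for lin-4, mir-48 or mir-241.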

How the data were processed

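Anti-GFP ChIP-seq was carried out on 2 biological replicates of 1 group. Per the notes deposited with the samples, the authors derived the peak lists from alignments of the replicates and of a control, and made the IDR list from both replicates. Aligner, peak caller and IDR threshold are not given in the sources used here. Peak signal in the deposited lists is on a scale not stated, and the significance field is a −log10 q-value of the authors' caller. Depth is unknown, as no read counts were used. Lists on ce10 were left out, except that the number of peaks in the ce10 IDR list, 5737, set an alternative.

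Summits were placed at the region start plus the listed offset, counted from 1. Gene models were from Ensembl release 115 for WBcel235. All ce11 regions lie within the chromosomes of the RefSeq genome. The replicate region with the closest summit, at most 100 bp away, was taken as the match. Counting was checked on planted summits. Scripts used Python 3.11.15, numpy 2.4.6, Biopython 1.88 and matplotlib 3.10.9. The genes, lists and rules were chosen with earlier results of these data known. The genes named are the 8 genes, neighbours holding their summits, the 4 strongest of the other listed genes by promoter summit, and the genes next to puf-9 and hbl-1 in signal. Others of the listed genes (those with 3 summits or with none) were named after their values were seen. Sequence at the strongest lin-14 summit is not reported here.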

Additional observations from a re-analysis of the deposited data

How the results depend on the processing

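The count of genes with an IDR summit was 7 in the IDR list and stayed between 6 and 7, and the summit count of 16 between 11 and 21, when the window was 2 kb or 10 kb around the starts, when overlap of the region replaced the summit, when the 2192 strongest IDR peaks or the 5737 strongest pooled regions were used, and when a summit counted only for the nearest start. The 4384 strongest regions of each replicate alone gave 7 genes, with 14 summits without replicate 1 and 19 without replicate 2. Promoter summits were at 4 genes, 3 with the narrower promoter (500 bp upstream to 100 bp downstream) and 6 with the wider (2000 bp upstream to 200 bp downstream). Use of the 2192 strongest IDR peaks left hbl-1 with 0 summits and lin-46 with 1. Counting for the nearest start left lin-46 with 0. The 5737 strongest pooled regions gave hbl-1 and lin-42 2 each, and leaving out replicate 2 gave hbl-1 2. The other 58 of 64 counts for single genes stayed within 1.5 times, and lin-29 had 0 throughout. GGTGTGA was at 0 summits within 100 or 200 bp and in each replicate. The shorter core, looked for within 50 bp only, was at 3. Taking the strongest region within 200 bp gave 14 of 14 replicate regions for the strongest summits, against 13 within 100 bp. No paired analysis was possible because there is 1 group.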
